A study of Mus musculus with 24 samples.

Results

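The exon fragments examined here were 2754 of 65535 MspI fragments (4.20%) in a table of reduced representation bisulfite sequencing (RRBS) of infant brown adipose tissue (BAT), and lay in 1149 genes. A fragment was taken where the authors' annotation placed it on an exon, did not place it in a CpG island core, gave a distance over 2000 bp to a CpG island and put it over 2000 bp inside the start of its gene. No methylation value was used in this choice. BAT came from female C57BL/6J mice at PND 12, 12 libraries from litters of dams given DDT, as o,p'-DDT mixed with p,p'-DDT, and 12 from litters of dams given the olive oil vehicle (VEH), by gavage from mid gestation into the first postnatal week. Each library was a pool of female littermates, so p-values measure the spread between litters, with that of read sampling and amplification included. Defining BAT genes such as Ucp1 lie on chromosomes that were not analysed here, and the tissue label was not checked against marker genes.

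DNA methylation in mammals is placed mainly on cytosines of CpG dinucleotides. CpG islands, which are GC-rich stretches at many promoters, usually stay free of it, whereas the bodies of transcribed genes, exons included, are usually methylated. RRBS cuts DNA with MspI at CCGG, so it samples the CpG-rich share of exons, and after bisulfite treatment a read that keeps a cytosine at a CpG counts as methylated.

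The sequences of 9 exon fragments that lay wholly in coding sequence show the range of CpG content behind the results. They were read from the RefSeq sequence of GRCm38 on the plus strand, with each CpG in capitals, and Bcan, Rusc1 and Fer1l4 lie on the minus strand. The first 3 were among those with the lowest levels in VEH, the next 2 among those with the highest, and the last 4 among those with the smallest p-values for DDT against VEH.
Ptpn18, chr1:34472852-34472920: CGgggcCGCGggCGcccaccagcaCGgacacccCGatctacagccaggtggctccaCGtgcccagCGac
Bcan, chr3:87997137-87997193: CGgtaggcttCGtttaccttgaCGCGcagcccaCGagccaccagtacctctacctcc
Rusc1, chr3:89090817-89090869: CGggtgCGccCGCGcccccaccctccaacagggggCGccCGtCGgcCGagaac
Snrnp200, chr2:127217883-127217941: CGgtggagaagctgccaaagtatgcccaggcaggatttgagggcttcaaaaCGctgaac
Kcnh1, chr1:192505273-192505425: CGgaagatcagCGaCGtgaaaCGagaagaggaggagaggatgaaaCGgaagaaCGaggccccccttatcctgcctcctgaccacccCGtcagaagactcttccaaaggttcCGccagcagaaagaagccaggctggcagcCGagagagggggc
Fer1l4, chr2:156020407-156020448: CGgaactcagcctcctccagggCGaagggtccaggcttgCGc
Fer1l4, chr2:156020449-156020521: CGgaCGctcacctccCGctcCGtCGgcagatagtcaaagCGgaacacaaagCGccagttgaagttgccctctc
Speg, chr1:75423049-75423118: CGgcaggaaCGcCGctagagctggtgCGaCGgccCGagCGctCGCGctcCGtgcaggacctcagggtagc
Pcdh10, chr3:45381040-45381156: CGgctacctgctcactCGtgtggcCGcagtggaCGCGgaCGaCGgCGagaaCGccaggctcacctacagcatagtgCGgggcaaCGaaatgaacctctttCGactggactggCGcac
The 3 low fragments held 8, 5 and 8 CpGs in 69, 57 and 53 bases. Snrnp200 held 2 in 59 bases, while Kcnh1 held 9 in 153.

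The exon fragments were 30 to 220 bp long, with a median of 84 bp, and held a median of 3 CpGs (1 to 34) at a median GC content of 59.2%. Chromosome 1 held 832 of them, chromosome 2 held 1291 and the analysed stretch of chromosome 3 held 631. Their median distance from the start of the gene was 20685 bp. Against GENCODE M21, 1936 (70.3%) lay wholly in coding sequence, 616 (22.4%) in untranslated exon, 179 spanned the edge of coding sequence, 17 lay in noncoding exons and 6 in no exon. An exon of the gene that the authors named was overlapped by 2546 fragments (92.4%), and 144 fragments overlapped exons of 2 or more genes. Among the 8962 CpGs of wholly coding fragments, the cytosine stood at codon position 1 in 3356, at position 2 in 2237 and at position 3 in 3369.

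The label "away from CpG islands" was checked against the islands themselves. The table lists 1 island for 3857 of 3860 genes, and the distance runs to that island, which need not be the nearest. Of 2755 exon fragments outside cores and over 2000 bp inside a gene start, the island distance limit removed 1. When all 1874 islands in the table were laid over the fragments, 224 fragments (8.13%) overlapped an island listed elsewhere in the table, 96 more lay within 2000 bp of one, and 2434 (88.4%) lay over 2000 bp from every listed island. A second check used sequence alone. A 500 bp window around the fragment was called CpG-dense where its GC content was at least 50% and its observed over expected CpG ratio at least 0.6, and 555 fragments (20.2%) had such a window, 328 of them over 2000 bp from every listed island. The label therefore held for most fragments and not for all, and the levels below are given for these classes separately.

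The methylation level was the share of methylated calls among all CpG calls of a fragment in a library, used at 10 or more calls. Libraries held between 8371958 and 14124652 calls, and 1347 of the 2754 exon fragments (48.9%), in 663 genes, had a level in at least 8 libraries of each group. No call was made in any library at 74 fragments. The median tested exon fragment had between 189 and 314 calls in VEH libraries and between 6 and 328 in DDT libraries. DDT replicate 4, with the median of 6 calls, had a level at 610 of the 1347 fragments, and DDT replicate 12, with a median of 126 calls, at 1214. Both stood apart, and results that rest on them are given with and without them. The deposited label of DDT replicate 12 also lies outside the consecutive numbers of the other libraries, and the reason is not given in the sources used here. Calls came from PCR-amplified reads, and a read can give a call at each CpG that it covers. Calls are therefore not independent molecules, and their number is not the number of reads.

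Exon fragments in VEH covered the whole range of methylation, with most of them over 80% or under 20%. The median level of the 1347 fragments was 72.4%, with quartiles at 17.1% and 91.9%. Levels over 80% were found at 590 fragments (43.8%), levels under 20% at 365 (27.1%) and levels between them at 392 (29.1%). In single VEH libraries the share under 20% ran from 25.9% to 27.8%, so the division was steady between litters, and the SD between VEH libraries had a median of 2.84 percentage points per fragment.

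**Figure D1:**
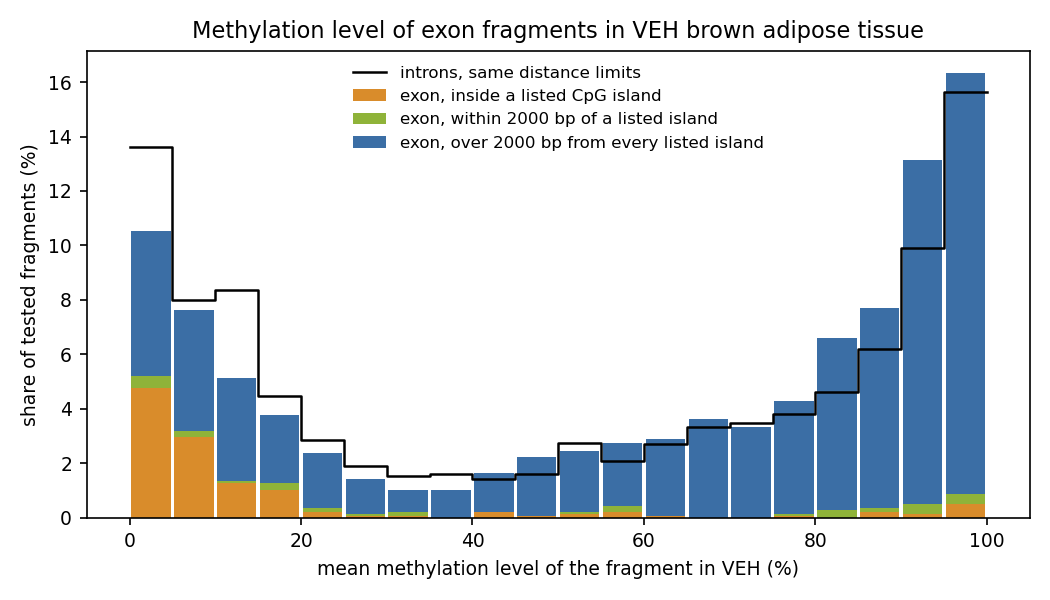
Share of tested exon fragments (bars, %) in each 5-point class of mean VEH methylation level (%), coloured by position relative to the listed CpG islands, with the 3076 tested intron fragments as a line. Fragments inside a listed island (orange) pile up under 20%, and 49.1% of those over 2000 bp from every listed island (blue) lie over 80%.

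The low levels went with CpG islands and CpG-dense sequence. The 163 tested fragments inside a listed island had a median level of 7.04%, and 135 of them (82.8%) were under 20%. Over 2000 bp from every listed island, 1145 fragments had a median of 79.5%, with 217 (19.0%) under 20%. Averaged per VEH library, the fragments far from islands stood at 64.8% ± 1.03 (SD, n = 12) and those inside islands at 16.7% ± 0.649, a difference of 48.1 percentage points that was found in 12 of 12 libraries (two-sided exact sign-flip permutation test over libraries, p = 0.000488, adjusted p = 0.000488 over 7 class comparisons). This p is the smallest that 12 libraries allow, and it speaks to the spread between litters, not between genes. The 39 fragments within 2000 bp of an island were spread over the range, with a median of 55.6%.

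Local CpG density divided the fragments far from every listed island in the same direction. Those with a CpG-dense window (n = 228) had a median of 10.9%, and those without (n = 917) had a median of 84.3%. The per-library means were 27.5% ± 0.983 and 74.1% ± 1.08 (SD, n = 12), a difference of 46.5 percentage points (exact sign-flip permutation test, p = 0.000488, adjusted p = 0.000488). Of the 365 fragments under 20%, 293 (80.3%) had a dense window or lay in a listed island, compared with 44 of the 590 fragments over 80% (7.46%). Across the 1347 fragments, Spearman's rho between level and CpGs per 100 bp was -0.35, and between level and the observed over expected ratio of the window it was -0.48. These describe fragments that share libraries and base composition. By CpG number, the median was 80.2% with 2 to 3 CpGs (n = 536), 84.0% with 4 to 5 (n = 312), 39.0% with 6 to 8 (n = 193) and 12.0% with 9 or more (n = 129), while fragments with a single CpG (n = 177) stood at 59.6%. Fragments with a single CpG were also shorter, with a median length of 39 bp against 57 bp over all tested exon fragments. The part of length in these medians was not tested.

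**Figure D2:**
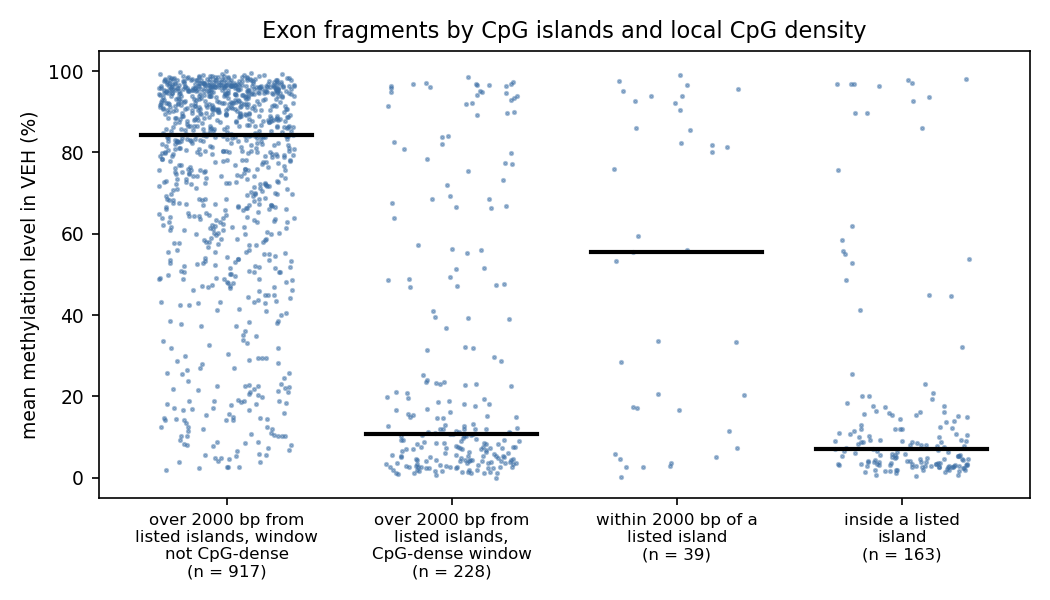
Mean VEH methylation level (%) of each tested exon fragment (points), by distance to the listed CpG islands and by whether the 500 bp window around it was CpG-dense; the black lines are medians. The medians are 84.3%, 10.9%, 55.6% and 7.04% from left to right, and each class holds fragments at both ends of the scale.

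Transcript starts inside the gene were a second feature of the low fragments. The rule measures distance from 1 gene start, whereas GENCODE M21 often gives a gene several starts, and 581 of the 2754 fragments (21.1%) lay within 1000 bp of a start of some transcript. Tested fragments within 500 bp of a transcript start (n = 255) had a median level of 28.5%, those from 500 to 5000 bp away (n = 536) 72.7%, and those farther (n = 556) 79.9%. Of the 365 fragments under 20%, 118 (32.3%) lay within 500 bp of a start, and of the 590 over 80%, 76 did (12.9%). Among fragments far from listed islands, those near a start had a median of 6.11% in a CpG-dense window (n = 75) and 79.9% without one (n = 132), so fragments near a start were low mainly where CpGs were dense. After dense windows, listed islands and near starts were set aside, 55 of the 365 low fragments were left.

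The distance limit of the rule also set how many low fragments entered. Just outside it, 166 tested exon fragments from 1000 to 2000 bp inside the gene start had a median level of 6.03%. Just inside it, 106 fragments from 2000 to 3000 bp had a median of 11.4%, with 71 (67.0%) under 20%. From 3000 to 20000 bp the median was 68.4% (n = 582) and beyond 20000 bp it was 80.2% (n = 659). No tested exon fragment past the start limit lay 1000 to 2000 bp from the island of its gene, and the 18 that lay 2000 to 3000 bp from it had a median of 80.9%.

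Coding fragments were more methylated than exon fragments outside coding sequence. The mean level per VEH library was 62.3% ± 0.966 (SD, n = 12) over 1056 coding fragments and 44.2% ± 0.918 over 230 fragments in untranslated or noncoding exon, and the difference of 18.1 percentage points was found in 12 of 12 libraries (two-sided exact sign-flip permutation test, p = 0.000488, adjusted p = 0.000488). Taken as the difference of medians it was 41.8 percentage points. Over 2000 bp from every listed island and without a CpG-dense window, the difference was 16.3 percentage points (733 against 150 fragments). Untranslated fragments in the first exon of a protein-coding transcript of their gene (n = 41) had a median of 4.23%, with 39 of 41 under 20%, and those in a last exon (n = 155) had a median of 67.3%. Coding fragments in neither a first nor a last exon (n = 641) had the highest median, 83.0%, against 59.1% in last exons (n = 360) and 40.9% in first exons (n = 55).

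Exons stood above introns chosen with the same limits. The mean level per VEH library was 58.6% ± 0.938 (SD, n = 12) over 1347 exon fragments and 52.1% ± 1.11 over 3076 intron fragments. The difference was 6.53 percentage points, between 6.10 and 6.86 in single libraries (two-sided exact sign-flip permutation test, p = 0.000488, adjusted p = 0.000488). Its size depended on the weighting, with 3.82 percentage points when each gene counted once, 13.2 for medians and 13.6 for pooled calls. Exon fragments held a median of 5.66 CpGs per 100 bp and intron fragments 4.35. Where both kinds lay over 2000 bp from listed islands without a dense window, exons stood at 74.1% ± 1.08 and introns at 65.2% ± 1.37, a difference of 8.88 percentage points. Within the 314 genes that had both, the mean difference was 6.03 percentage points, with exons higher in 174 genes and lower in 140. Of the intron fragments, before the filter on calls, 13.6% overlapped a GENCODE exon. Fragment length was a further difference in level, since the median was 60.2% for exon fragments up to 50 bp and 82.8% for longer ones, and the part of length in the exon and intron difference was tested only by dividing at 50 bp, where it was 6.19 and 5.49 percentage points. Exons in island cores at the same distance from the gene start came to 12 fragments, of which 6 were tested. They averaged 31.5% ± 3.93 (SD, n = 12), and the difference of 27.1 percentage points (p = 0.000488, same test) rests on those 6 fragments; it was 47.9 for medians and 41.8 with each gene counted once.

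The extremes show these features gene by gene. The lowest levels among the fragments with at least 50 calls in every VEH library were at Rusc1 (0.375% ± 0.253, SD, n = 12), Shf (0.544% ± 0.481), Insig2 (0.556% ± 0.387), Rgl1 (0.613% ± 0.200), Ptpn18 (0.970% ± 1.01), Dcun1d1 (1.17% ± 0.232), Bcan (1.22% ± 0.971) and Wdr38 (1.23% ± 1.28). All 8 had a CpG-dense window, and Rusc1, Shf and Insig2 lay inside a listed island. Insig2, which holds the sterol sensor complex in the endoplasmic reticulum, was read at an untranslated first exon its midpoint 10.5 bp from a transcript start although 4842 bp inside its gene start. Rgl1, a Ral exchange factor family member, was likewise 93.5 bp from a transcript start and 141258 bp inside the gene start. The Wdr38 fragment also overlapped an exon of Rpl35, and the Ptpn18 fragment also overlapped Gm28417, so their levels cannot be assigned to 1 gene.

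The highest levels with that coverage were at Lrp4 (99.5% ± 1.05, SD, n = 12), Kcnh1 (99.4% ± 0.538), Fam83d (99.3% ± 0.661), Etv3 (99.3% ± 0.520) and Snrnp200 (99.1% ± 0.685). Lrp4 is a receptor of the neuromuscular junction, Kcnh1 a voltage-gated potassium channel, Etv3 an ETS family factor and Snrnp200 a helicase of the spliceosome. None of these 5 windows was CpG-dense, and the nearest listed island lay between 8487 and 314187 bp away. Lrp4 held 6 CpGs, Kcnh1 9, Fam83d 1, Etv3 4 and Snrnp200 2. Kcnh1 stood at 99.4% with 9 CpGs in 153 bp, or 5.88 per 100 bp, beside a median of 5.66 over tested exon fragments. Single-end reads of 50 bp do not span 153 bp, so the calls need not cover all 9.

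Single genes often held both kinds of exon. Of 310 genes with 2 or more tested fragments, 67 spanned over 50 percentage points between their lowest and highest fragment. Fragments that abut on the chromosome share an MspI site, and among 336 such pairs the median difference was 8.45 percentage points, 189 pairs were within 10 points and 22 differed by over 50. Speg, a kinase of striated muscle, had the most tested fragments, 21, between 6.85% and 96.2%. Its 8 fragments inside a listed island ran from 6.85% to 55.8%, and the other 13 from 10.98% to 96.2% with a median of 74.2%. Among those 13, the fragments between 12803 and 13629 bp inside the gene start stood at 10.98% to 33.9%.
Espnl, an espin-like protein, had 11 tested fragments between 8.08% and 89.7%, and 10 of them lay in a listed island, so an island did not always mean a low level. All 12 tested fragments of Zfp697, a zinc finger gene, lay in a listed island and stood at 1.97% to 17.7%. All 11 tested fragments of Sox17, a transcription factor of endoderm and vessels, did so too, at 2.24% to 11.01%, from 3055 to 4479 bp inside the gene start. Etv3 had no fragment in a listed island, and its 10 tested fragments stood at 52.3% to 99.3% with a median of 88.3%.

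**Figure D3:**
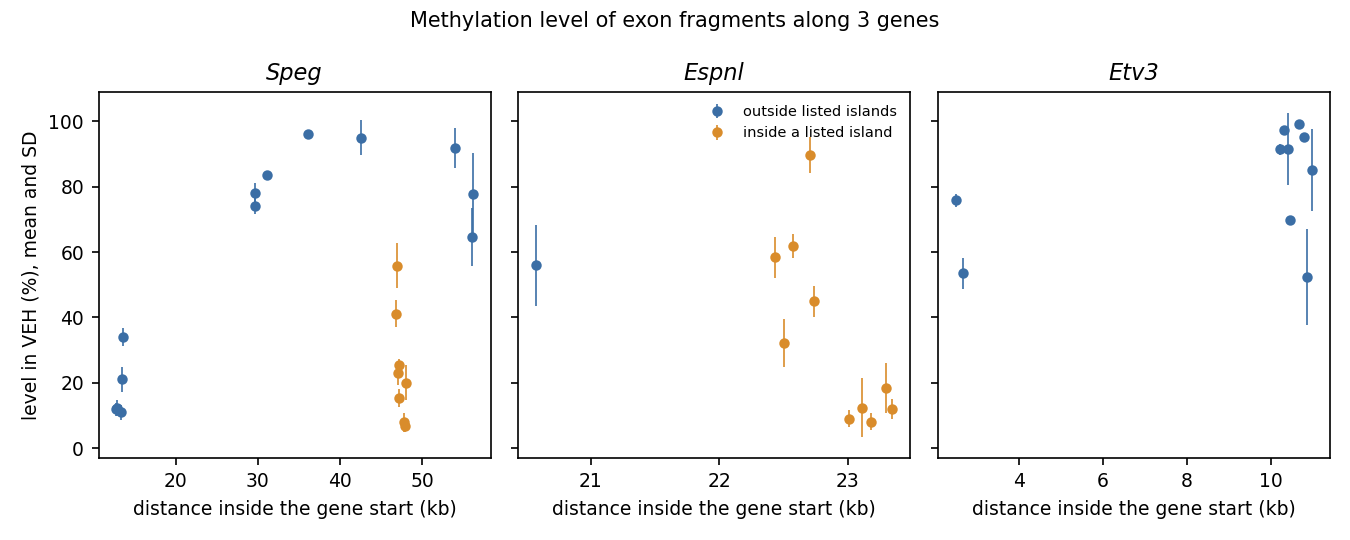
Mean VEH methylation level (%, points) with its SD over 12 libraries (lines) for the tested exon fragments of Speg, Espnl and Etv3, against distance inside the gene start in kb. Speg falls to between 6.85% and 55.8% inside a listed island (orange), Espnl ranges from 8.08% to 89.7%, and Etv3, with no listed island, stays over 52%.

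Some exons varied more between VEH libraries than the rest. Each litter pool gave a single library, so spread between litters cannot be told apart from that of read sampling and amplification. With at least 50 calls in every VEH library, the largest SD was at an Etv3 fragment, chr3:87536194-87536260, with 52.3% ± 14.7 (SD, n = 12) and VEH libraries from 19.1% to 69.2%, around a median of 56.7%. Ccdc109b stood at 47.2% ± 12.5, Celf3, an RNA-binding protein gene, at 78.9% ± 12.4, and Pdk1, a kinase of pyruvate dehydrogenase, at 81.8% ± 11.8. Slc25a44, the mitochondrial carrier of branched-chain amino acids, had 73.3% ± 11.1 in VEH and 81.2% ± 11.9 in DDT at a fragment with 1 CpG, a difference within that spread (p = 0.105, adjusted p = 0.869, F test). The median SD over all tested exon fragments was 2.84 percentage points. The Ccdc109b fragment overlapped an exon that GENCODE M21 gives to Mcub.

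The level over all exon fragments was next compared between DDT and VEH. VEH libraries ran from 56.5% to 59.8% with a median of 58.6%. DDT libraries ran from 40.0% to 59.7% with a median of 58.0%. DDT replicates 4 and 12 lay below every VEH library at 40.0% and 53.7%, and the other 10 DDT libraries, from 56.7% to 59.7%, lay within the VEH range. The difference of the group means, DDT minus VEH, was -2.28 percentage points, -0.80 without DDT replicate 4, -2.04 without DDT replicate 12 and -0.39 without both. With the calls of all exon fragments pooled in each library it was -5.03. Each mean runs over the fragments that a library covered. At the 533 fragments that all 24 libraries covered, the difference was -0.52, with DDT replicate 4 at 39.8%, DDT replicate 12 at 41.7% and VEH libraries from 42.7% to 44.9%. Intron fragments of the same 2 libraries were at 31.2% and 46.4%, where VEH libraries had 49.7% to 53.4%.

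**Figure D4:**
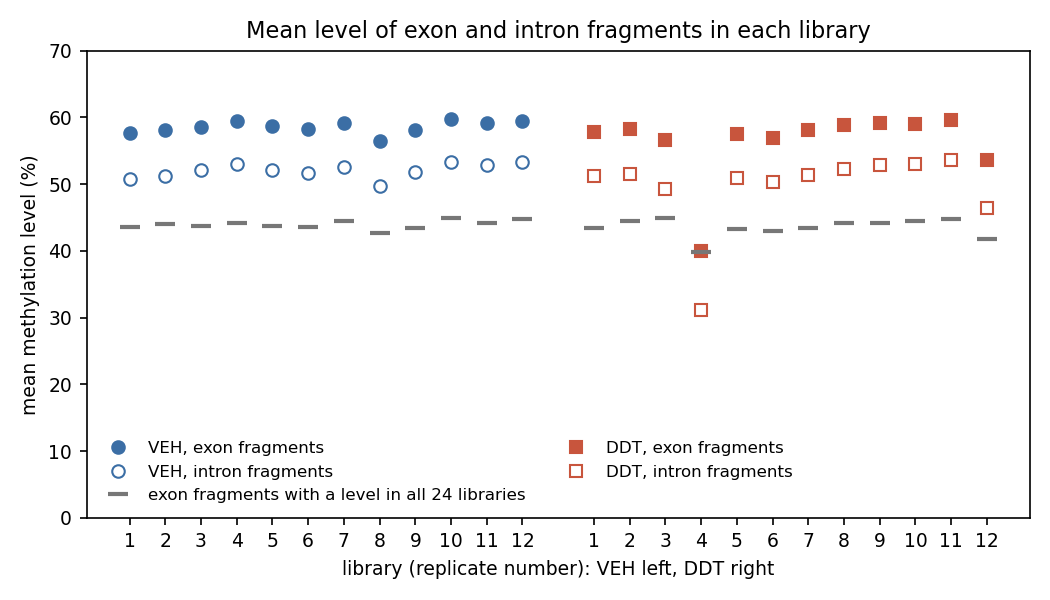
Mean methylation level (%) in each VEH and DDT library, over tested exon fragments (filled), tested intron fragments (open) and the 533 exon fragments that all 24 libraries covered (grey bars). Exons stand above introns in every library, and DDT replicates 4 and 12 stand below the VEH libraries in all 3 sets.

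No exon fragment differed between DDT and VEH after adjustment (0 of 1347 at an adjusted p under 0.05, F test with Benjamini-Hochberg adjustment over 20225 fragments, smallest adjusted p 0.869, where 0% of all tested fragments were called). At an unadjusted p under 0.05 there were 63 exon fragments in 59 genes, or 4.68%, beside 4.18% of all tested fragments, so the share was near the background. Quasi-binomial regression and limma gave 99 and 47. Of the 63 fragments, 25 were higher and 38 lower in DDT, or 39.7% higher (95% Wilson interval 28.5% to 52.0%, counting error only), beside 29.8% over all tested fragments, where 1.25% were called higher and 2.93% lower. The interval counts fragments as independent, but all share the same 24 libraries, so it does not measure the spread between litters. The median difference over the 1347 fragments was -0.28 percentage points, and -0.16 over all tested fragments. DDT and VEH levels did not separate at any exon fragment (0 fragments, beside 0% of all tested fragments).

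The direction of these 63 fragments is given by their level in VEH, beside the same counts over all tested fragments. Under 20%, 1 exon fragment was higher and 13 lower in DDT, beside 77 higher and 376 lower over all tested fragments. Between 20% and 80%, 2 were higher and 14 lower, beside 38 and 131. Over 80%, 22 were higher and 11 lower, beside 137 and 86. The exon fragments thus leaned the same way as all tested fragments at each level, and they are part of those counts. Without DDT replicate 4 the first of these counts was 4 higher and 9 lower, beside 191 and 267 over all tested fragments, and without both DDT replicates 4 and 12 the 3 counts were 3 and 11, 5 and 18, and 25 and 11, beside 209 and 264, 70 and 100, and 158 and 81 over all tested fragments. Differences of 5 percentage points or more were found at 18 of the 63, 3 higher and 15 lower, beside 57 higher and 168 lower over all tested fragments. The difference in direction between levels was not tested.

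The 9 exon fragments described here, among the 10 with the smallest p-values, each had an adjusted p of 0.869. Abutting coding fragments of Fer1l4, a ferlin family gene, differed in opposite directions. The first, chr2:156020407-156020448 with 3 CpGs, ran from 71.7% through a median of 74.3% to 76.2% in VEH and from 69.2% through 71.1% to 74.7% in DDT. The groups overlapped, and 10 of 11 DDT libraries lay under the median of VEH. Its mean was 74.1% ± 1.47 in VEH (SD, n = 12) against 71.5% ± 1.66 in DDT (SD, n = 11), which differed by -2.56 percentage points (p = 0.000778, F test). DDT replicate 12, with 13 calls, was the lowest DDT library at 69.2%, and without it the difference was -2.33 percentage points. The second, chr2:156020449-156020521 with 7 CpGs, was at 90.5% ± 2.25 in VEH and 93.4% ± 2.28 in DDT (n = 12 each), with 11 of 12 DDT libraries above the VEH median (p = 0.00494, F test). Here DDT replicate 12 was the highest DDT library at 98.5%, and without it the difference went from 2.89 to 2.43 percentage points.

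Col5a1, which encodes a chain of type V collagen, was read at an untranslated last exon, chr2:28037033-28037097. VEH libraries ran from 91.6% through 92.2% to 94.4% and DDT libraries from 92.3% through 93.4% to 95.2%. All 11 DDT libraries with a level were above the VEH median, and the difference was 1.23 percentage points (p = 0.00428, F test). It was 1.07 without DDT replicate 12, the highest DDT library at 95.2%. Itm2c, a BRI family membrane protein, likewise had 11 of 11 DDT libraries above the VEH median at chr1:85908277-85908332, with 96.7% ± 0.707 in VEH (n = 12) and 97.7% ± 0.967 in DDT (p = 0.00546, F test). Without DDT replicate 12, at 100% with 30 calls, the Itm2c difference went from 1.09 to 0.86 percentage points. The Col5a1 and Itm2c differences were small in size, and VEH and DDT libraries overlapped at both fragments.

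Speg, at chr1:75423049-75423118 in coding exon 28 and inside a listed island, ran from 3.54% through 7.13% to 14.2% in VEH and from 0.0557% through 4.97% to 7.06% in DDT. All 12 DDT libraries were under the median of VEH, and 3 of them, DDT replicates 4 and 12 included, were below the lowest VEH library. The means were 7.84% ± 2.84 and 4.63% ± 2.07 (SD, n = 12 each), a difference of -3.21 percentage points (p = 0.00447, F test). It was -2.80 without DDT replicate 4, -3.09 without DDT replicate 12 and -2.62 without both. Pcdh10, a protocadherin of cell adhesion, was at 18.2% ± 3.04 in VEH and 13.4% ± 4.86 in DDT (n = 12 each) at chr3:45381040-45381156, with 11 of 12 DDT libraries under the median of VEH (p = 0.00786, F test). DDT replicate 4 was at 0% there with 661 calls, and without it the difference went from -4.84 to -3.62 percentage points (p = 0.00562). Dlgap4, a postsynaptic scaffold, differed by -2.17 percentage points (73.5% ± 1.69 in VEH against 71.3% ± 1.67 in DDT, p = 0.00549, F test), and 1110051M20Rik was at 94.6% ± 2.30 in VEH and 97.4% ± 2.21 in DDT (p = 0.0059, F test).

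Pigt, a subunit of the GPI transamidase, was at 89.7% ± 6.70 in VEH (SD, n = 9) against 98.4% ± 3.41 in DDT (SD, n = 8) at a 32 bp fragment with 12 to 88 calls (two-sided exact permutation test, p = 0.00568).

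**Figure D5:**
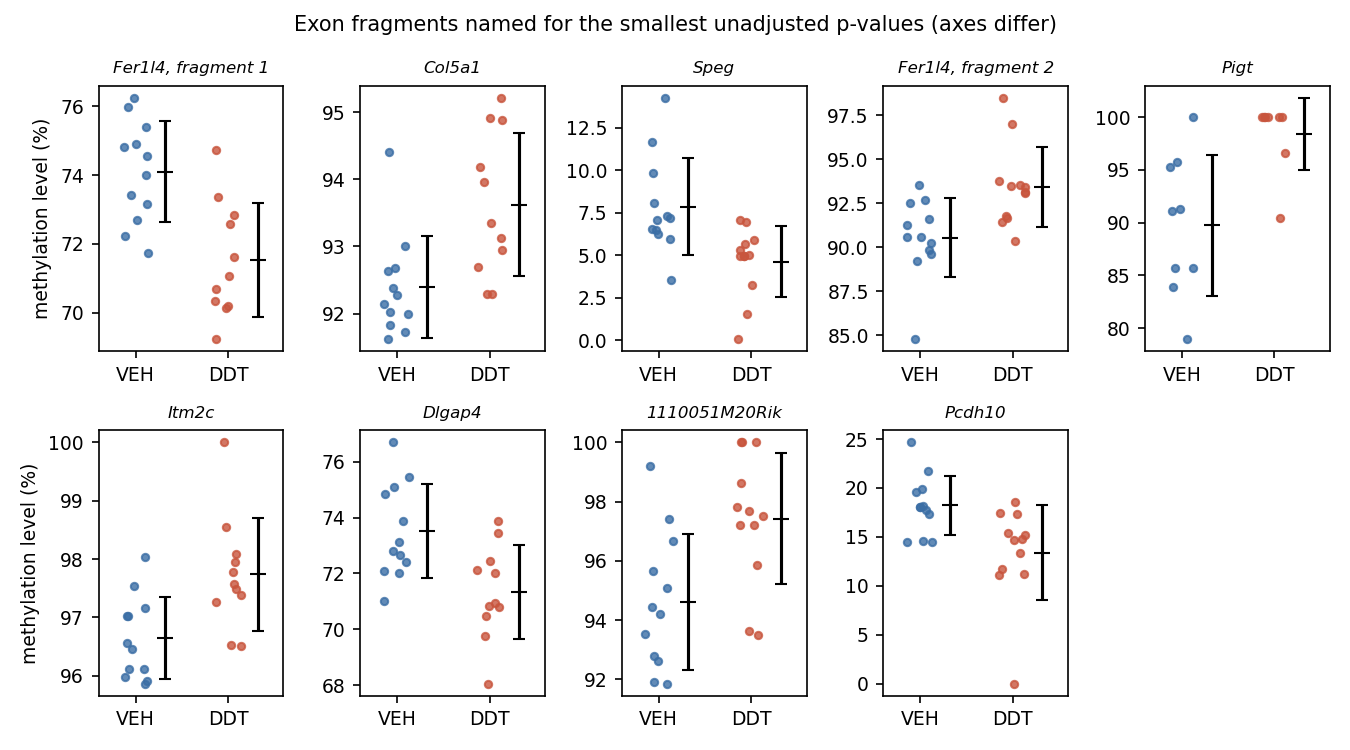
Methylation level (%) of each VEH (blue) and DDT (red) library at 9 of the 10 exon fragments with the smallest unadjusted p-values, with mean and SD beside the points; the vertical axes differ and do not start at 0 in each panel. VEH and DDT points overlap in every panel.

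Large differences at 4 further fragments were within wide spreads. Nr4a2, an orphan nuclear receptor, was at 72.0% ± 9.24 in VEH (n = 12) and 58.4% ± 20.9 in DDT (n = 11), a difference of -13.6 percentage points (p = 0.0528, F test) that was -7.76 without DDT replicate 4, which stood at 0% with 35 calls. 4933406M09Rik differed by -13.4 percentage points (p = 0.0695), and by -8.45 without DDT replicate 12. Tnks1bp1 also differed by -13.4 (p = 0.137), and by -6.81 without DDT replicate 4, which was at 0.0472% with 2120 calls. Prex1, a Rac exchange factor, differed by -13.4 (p = 0.116), and by -8.58 without DDT replicate 12. In each of these 4 fragments the DDT library left out had the lowest DDT level, so a smaller difference without it was fixed in advance. With DDT replicate 12 left out in place of DDT replicate 4, Nr4a2 differed by -12.8 and Tnks1bp1 by -11.5 percentage points. DDT replicate 4 had no level at 4933406M09Rik and Prex1.

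Gene lists of tissue functions were read by their exon fragments, beside a median VEH level of 72.4% and a median difference of -0.28 percentage points over all 1347. The counts of list fragments at an unadjusted p under 0.05 stand beside 4.18% of all tested fragments, and no list fragment passed the adjusted threshold (0 fragments). Extracellular matrix genes had 29 tested fragments in 18 genes, with a median VEH level of 91.3%, 21 of them over 80% and none (0) under 20%. At an unadjusted p under 0.05, 2 were higher and 1 lower in DDT. The list ran from 22.3% ± 5.64 at Thbs3, a thrombospondin whose fragment also overlapped Mtx1, to 98.9% ± 1.69 at Lamc1, a laminin chain. Sarcomere and muscle genes had 35 tested fragments in 6 genes, with a median of 68.4%, 7 under 20% and 14 over 80%, and 2 were lower in DDT at an unadjusted p under 0.05. Speg held 21 of the 35 fragments and 6 of the 7 under 20%, and most of the rest lay in Ttn. The 2 fragments lower in DDT were 1 of Speg and 1 of Ttn, so these values describe mainly these genes. A Ttn fragment was at 100% in all 12 VEH libraries, and a second fragment of Speg had the lowest level of the list, 6.85% ± 2.08. Ttn encodes titin, the spring of the sarcomere.

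Adipocyte, lipid and fuel oxidation genes had 18 tested fragments in 12 genes, with a median of 87.0%, 7 under 20% and 10 over 80%. The 1 fragment at an unadjusted p under 0.05 was at Idh1, the cytosolic isocitrate dehydrogenase, at chr1:65178990-65179027 in a listed island, with 2.51% ± 0.597 in VEH (SD, n = 12) against 1.77% ± 0.667 in DDT (SD, n = 11) (p = 0.011, F test). Of the 11 DDT libraries with a level, 10 lay under the median of VEH. With a minimum of 5 calls, which brings in DDT replicate 4 with 8 calls there, the difference went from -0.74 to 0.16 percentage points. Insig2 had the lowest level of this list and Lrp4 the highest, both given above. The list was broad, since Lrp4 is described above as a receptor of the neuromuscular junction.

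Markers of blood and immune cells, which BAT also holds, had 4 tested fragments in 4 genes, with a median of 81.2%. Ptprc, the leukocyte antigen CD45, was at 79.1% ± 4.15 in VEH (SD, n = 12) against 70.3% ± 12.9 in DDT (SD, n = 11) (p = 0.0357, F test), and DDT minus VEH went from -8.78 percentage points to -5.23 when DDT replicate 12 was left out. That library stood at 34.8% with 299 calls. Inpp5d, a phosphatase of blood cells, was highest at 85.8% ± 3.85. With 4 fragments, the part of cell mixture in the results was not tested. Vascular, neural and axon guidance genes had 41 tested fragments in 18 genes, with a median of 66.5%, 10 under 20% and 16 over 80%, and 1 was higher and 2 lower in DDT at an unadjusted p under 0.05. Notch1 was lowest at 2.38% ± 0.359, 199.5 bp from a transcript start, and in DDT replicates 4 and 12 it stood at 20% and 11.4%. Nav1, a neuron navigator, was highest at 96.8% ± 1.27, and Dlgap4 had the smallest p of this list.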

How the data were processed

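RRBS of BAT from 24 litter pools (12 VEH, 12 DDT) was analysed. Reads of these infant libraries were single-end and 50 bp long. The authors trimmed reads with Scythe and Sickle, aligned them to GRCm38 with Bismark 0.15.0 and Bowtie2, and deposited counts of methylated and not methylated CpG calls per MspI fragment, not normalized, with an annotation whose release is not given in the sources used here. The table covers chromosomes 1 and 2 and part of 3, and other chromosomes were not analysed here.

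Levels used at least 10 calls, and fragments with 8 such libraries per group were tested with an ANOVA F test and Benjamini-Hochberg adjustment over 20225 fragments. Classes were compared over the 12 VEH libraries with two-sided exact sign-flip permutation tests. Where a group had under 10 levels at a named fragment, a two-sided exact permutation test is given. Exon, coding and transcript start positions came from GENCODE M21, sequences from the RefSeq GRCm38.p6 assembly.

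The exon fragments, gene lists and comparisons were chosen with earlier results of these data known, and 4 of the 7 class comparisons after their values could be seen. Fragments named are the 10 with the smallest p, the 5 with the largest difference, the 8 lowest, 5 highest and 5 most variable in VEH with at least 50 calls in every VEH library, the 5 genes with most tested fragments, and, per list, the smallest p, lowest and highest fragment. Of these, 2 fragments are not reported here. Alternatives were a quasi-binomial regression, limma on log2 ratios with 1 added to each count, minimums of 5 and 20 calls, levels in all 24 libraries, a depth covariate, a replicate block and leaving out DDT replicates 4 and 12. Tests were checked on simulated calls. The lowest mean chi-square between libraries was 1.72 (276 pairs). Calls from the same read, or from amplified copies of it, are linked and can raise this value. Whether any pair of libraries shared a source was therefore not decided by it. Software was limma 3.58.1 under R 4.3.3, and SciPy 1.17.1, matplotlib 3.10.9, pandas 2.3.3 and NumPy 2.4.6 under Python 3.11.15.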

Additional observations from a re-analysis of the deposited data

Results flagged for a closer look

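Among the named fragments, 10 groups had between 4 and 10 levels, and 3 of them held a library far from the others by Dixon's 95% criterion. Chance meets it in about 1 of 20 groups of normally spread values, a rate that does not hold at Ttn and Pigt, where most DDT libraries were at the upper bound of 100%. At the Ttn fragment, chr2:76712649-76712705, DDT replicate 5 was at 96.3% where the other DDT libraries with a level were at 100%. At Tnks1bp1, DDT replicate 4 was at 0.0472% with 2120 calls. At Pigt, DDT replicate 10 was at 90.5%, while the median of the 8 DDT libraries was 100%.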

How the results depend on the processing

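The count of exon fragments at an adjusted p under 0.05 was 0 in each of the 10 alternatives. At an unadjusted p it was 63, and 99 with the quasi-binomial regression and 27 among the 533 exon fragments that all 24 libraries covered, where fewer fragments were tested. The cause of the former was not tested. The share of these higher in DDT, 39.7%, was 54.0% with the replicate block. In the other alternatives this share ran from 29.8% with limma to 49.1% with the depth covariate. The replicate numbers did not pair the libraries, since the correlations of same-numbered libraries ran from -0.18 to 0.20, 3 of 12 were over 0.1 and 1 of 12 VEH libraries correlated best with its own number, and with the block 50 fragments had an unadjusted p under 0.05. The mean exon level, DDT minus VEH, went from -2.28 to -5.03 percentage points with pooled calls. The share of exon fragments under 20%, 27.1%, was 26.4% and 28.3% with at least 5 and 20 calls, and 18.2% and 30.9% with limits of 10% and 30%. At Idh1 the difference of -0.74 percentage points was 0.16 with at least 5 calls. Of 137 values at the 15 fragments named for their difference, the other 136 kept their direction and their side of the threshold. These fragments were picked from the same libraries for a small p or a large difference, so a kept direction is no separate support. No exon fragment passed the adjusted threshold in any alternative, so a kept side adds nothing to that count. Without DDT replicate 4, 4 fragments under 20% were higher in DDT in place of 1. The class differences in VEH kept their sign in all alternatives run. Their p stayed at 0.000488 (exact permutation test), the smallest that 12 libraries allow, so an unchanged p is no separate support. The calls of DDT replicate 4 were unevenly spread, with a median of 6 per tested exon fragment in a library of 12788050 calls, for which the cause was not tested. In all, 1407 exon fragments did not reach 10 calls in 8 libraries of each group and were not tested.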
